A study of Mus musculus with 28 samples.

Results

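Gonadotropes are the anterior pituitary cells that make luteinizing hormone and follicle-stimulating hormone, and the transcripts described here are 8 genes of that cell type among the 32594 genes counted in whole mouse pituitary. The genes were listed by name as known genes of this cell type, with earlier results of these data known. They are the hormone subunits Cga, Lhb and Fshb, the receptor Gnrhr, the nuclear receptors Nr5a1 and Nr0b1, and the activin pathway genes Inhbb and Fst. Both gonadotropins pair the alpha subunit of Cga with their own beta subunit, Lhb or Fshb, and thyrotropin of the thyrotropes uses the same alpha subunit. The hypothalamus drives the cells with pulses of gonadotropin-releasing hormone (GnRH), which acts on Gnrhr. Nr5a1 (SF-1) is the nuclear receptor that switches on several gonadotrope genes, and Nr0b1 (DAX-1) restrains it. Inhbb encodes the subunit of activin B and inhibin B, activin raises Fshb, and Fst (follistatin) binds activin and holds it back.

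Whole pituitaries of 28 C57BL/6J mice, 8 weeks old by the labels, were sequenced as mRNA, 16 from females and 12 from males. Mice of every group, controls too, had been accustomed to the deprivation tanks on earlier days. Home cage controls (4 females, 4 males) were neither sleep deprived nor restrained. Restrained mice (4 females, 2 males) came from the home cage and were held in a restrainer for 20 min. Mice with paradoxical sleep deprivation (PSD; 4 females, 3 males) spent 12 h on small columns above water, so that a mouse losing muscle tone in REM sleep is woken. PSD + restraint mice (4 females, 3 males) had both, and glands were taken about 18 h after PSD and 10 min after restraint. Mice under PSD shared a tank with their cage mates, the stage of the female cycle was not given in the sources used here, and the p-values measure the spread between the mice of a group. In bulk tissue, fewer gonadotropes and less RNA per gonadotrope cannot be told apart.

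Each mouse had 14024465 to 52948531 counts in all (median 33389717), and PSD females were the shallowest group, with a median of 19130092 against 36691234 in control females. Levels are given as CPM, a gene's count relative to the library total scaled by TMM. SE stands for an approximate standard error of a log2 fold change. It was taken back from edgeR's test, as the absolute log2 fold change divided by the square root of the F statistic. A gene counted as called when edgeR's quasi-likelihood test gave an adjusted p of 0.05 or less (Benjamini-Hochberg, over all genes tested) together with a change of about 1.25-fold or more in either direction. Markers of gonadotropes were counted in every mouse, with none of the 7 at 0. Of these markers Cga, Lhb, Fshb, Gnrhr and Nr5a1 are themselves among the genes described here. In 3 libraries the markers of other tissue stood apart. Male control mouse 1 had 4.67 CPM summed over 4 pituicyte markers, where the other male controls had 78.6 to 102.3, so posterior lobe was nearly absent from it. Other markers also spread widely over the 4 male controls. Summed neurointermediate lobe markers ran from 465.2 to 1931 CPM, and summed corticotrope and melanotrope markers from 11890 to 65400 CPM. PSD female mouse 1 had 131.8 CPM summed over 5 forebrain neuron markers, where the other PSD females had 41.7 to 65.1, and PSD + restraint female 4 had 107.8, where the others of its group had 41.6 to 66.4.

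The sequences just upstream of the 3 hormone subunit genes are shown because these genes had the 3 largest differences between the sexes over all mice, and Cga the treatment calls. RefSeq promoters on build GRCm38.p6 were found for 6 of the 8 genes (Cga, Lhb, Fshb, Gnrhr, Nr0b1 and Inhbb), and the 150 bases before the RefSeq start are printed 5′ to 3′ on the gene's own strand. Capitals mark matches, on either strand, to letters known from gonadotrope genes and chosen with these promoters in view, namely AAGGNCA for SF-1, CNCCCCCA for EGR factors, TAATC for bicoid-type homeodomain factors, TGANGTCA for a cAMP response element and TATAAA for a TATA box, and no 2 of the marked matches overlapped.
Cga (chr4:34893629-34893778, plus strand): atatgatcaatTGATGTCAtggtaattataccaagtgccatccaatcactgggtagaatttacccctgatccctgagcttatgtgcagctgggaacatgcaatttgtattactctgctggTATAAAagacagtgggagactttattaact
Lhb (chr7:45420796-45420945, plus strand): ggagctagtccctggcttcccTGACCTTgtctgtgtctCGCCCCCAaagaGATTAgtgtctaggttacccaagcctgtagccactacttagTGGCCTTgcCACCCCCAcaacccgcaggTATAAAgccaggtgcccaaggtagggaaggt
Fshb (chr2:107059652-107059801, minus strand): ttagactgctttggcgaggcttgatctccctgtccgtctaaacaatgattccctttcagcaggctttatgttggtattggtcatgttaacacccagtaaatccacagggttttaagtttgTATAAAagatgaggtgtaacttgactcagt

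Lhb held 2 matches to the SF-1 letters, at 129 to 123 and 59 to 53 bases before the start, each followed by a match to the EGR letters, and a match to the homeodomain letters lay between the pairs. Cga held the cAMP response element letters at 139 to 132 bases before the start. All 3 genes had TATAAA, which begins 30 bases before the start in Cga and Fshb and 31 in Lhb. Of 32851 RefSeq promoters of the same length, 10.5% held the SF-1 letters, 9.06% the EGR letters, 11.7% the homeodomain letters, 5.7% the cAMP response element letters and 7.57% the TATA box letters. A match describes the letters and is no measured binding site. The RefSeq start of Lhb lies inside the gene model of GENCODE, so that most of its window overlaps that model.

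Cga and Lhb were the most abundant of the 8 transcripts, followed by Fshb in both sexes. On the TPM scale, which divides by transcript length before scaling to the library and so can be compared between genes, the median over females was 5308 for Cga, 876 for Lhb, 109 for Fshb, 39.6 for Gnrhr, 15.7 for Nr5a1, 6.12 for Inhbb, 5.48 for Nr0b1 and 0.0686 for Fst. In males the order was the same, with medians of 8782 for Cga, 1473 for Lhb, 840 for Fshb, 44.4 for Gnrhr, 17.5 for Nr5a1, 9.35 for Inhbb, 4.14 for Nr0b1 and 0.101 for Fst. Fshb overlapped both its neighbours in females, with 28.3 to 506 TPM beside 479 to 1075 for Lhb and 28.8 to 57 for Gnrhr, and neither in males (677 to 1026 TPM). Inhbb and Nr0b1 also overlapped in females (4.74 to 7.69 and 2.86 to 6.75 TPM) and did not in males (7.19 to 12.8 and 1.67 to 6.76 TPM). All other neighbours in this order lay apart in both sexes. Fst had 0 to 28 counts per mouse and did not pass edgeR's filter on low counts in females.

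**Figure D1:**
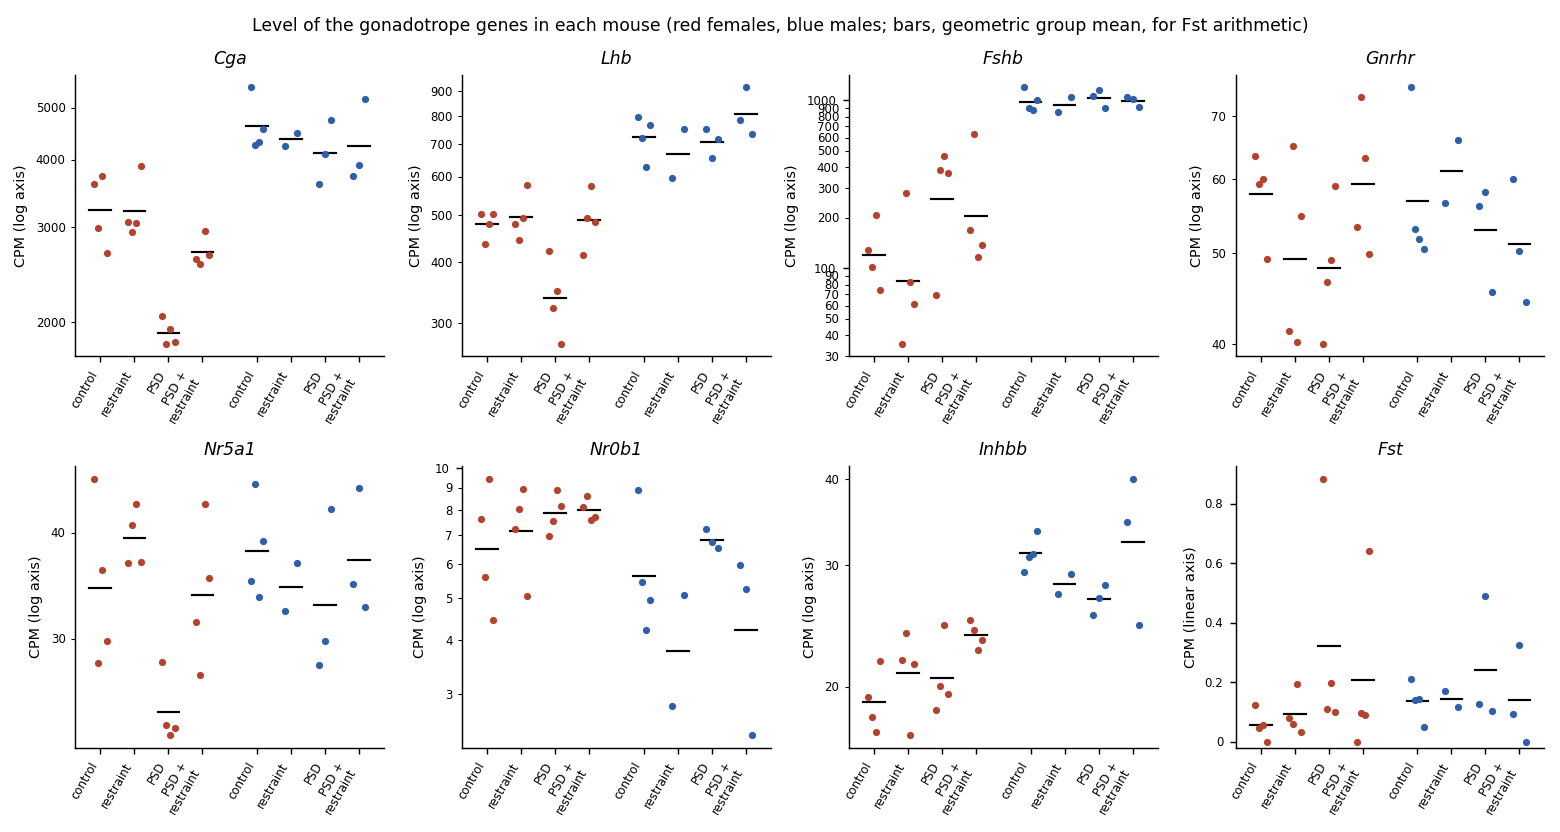
CPM of each of the 8 genes in every mouse (1 point a mouse, 28 mice), by treatment, females in red and males in blue, on a log axis except for Fst. Bars are geometric means of a group, arithmetic for Fst. PSD females form the lowest group of Cga and Lhb, and Fshb spreads widely in females while the males stay between 853 and 1197 CPM.

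Cga was lower in females after PSD alone than in control females. Cga (chromosome 4, 34893779 to 34907370, plus strand, GRCm38) had 3600, 2993, 3736 and 2681 CPM in the 4 control females and 2051, 1825, 1944 and 1836 CPM in the 4 PSD females. Every PSD female lay below every control. The log2 fold change was -0.76 (SE 0.11, adjusted p = 0.0257, edgeR), a fall to 0.591 of the control level. It was the 1 gene of the 7 tested in females that was called, beside 5 of 18059 genes over the whole table (0.0277%), of which Cga alone was lower (0.00554%), and DESeq2 called 3 of the 7, namely Cga, Lhb and Nr5a1, beside 398 genes over the whole table (2.2%). In the edgeR fit 3 of the 7 had an unadjusted p under 0.05, as did 19.8% of all genes tested.

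Lhb (chromosome 7, 45420820 to 45421897, plus strand), the beta subunit that makes luteinizing hormone, had 502, 436, 480.2 and 502 CPM in control females and 423, 323, 350 and 272 CPM in PSD females. Again every PSD female lay below every control, and 2 of the 7 genes, Cga and Lhb, had groups that did not overlap, beside 8.61% of all genes tested. Its log2 fold change was -0.48 (SE 0.12) with an adjusted p of 0.109 in edgeR and 0.0138 in DESeq2. Nr5a1 (chromosome 2, 38692656 to 38714542, minus strand) had 46.3, 28.1, 36.2 and 29.8 CPM in control females and 28.2, 23.8, 23.1 and 23.6 CPM in PSD females. The groups overlapped through PSD mouse 1 and control mouse 2. Its log2 fold change was -0.51 (SE 0.15, adjusted p = 0.129 in edgeR and 0.0418 in DESeq2).

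The other 4 tested genes had log2 fold changes from -0.24 (Gnrhr) to 1.34 (Fshb) after PSD in females, and none had an unadjusted p under 0.05. The median over the 7 genes was -0.24, where the median over all genes tested was 0.0084. Fshb (chromosome 2, 107056140 to 107059656, minus strand) had 128.4, 102.4, 208 and 74.1 CPM in control females and 69.5, 384, 469 and 368 CPM in PSD females. Thus 3 of the 4 PSD females lay above every control and mouse 1 below every control.

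Several values moved with the fall of Cga. All 6 markers of the neurointermediate lobe had a log2 fold change above 0 in PSD females (median 0.60, none called), with scores (mean log2 CPM) of 7.10 to 8.21 in PSD females and 6.91 to 7.29 in controls. With that score as a covariate, the log2 fold change of Cga was -0.71 with an adjusted p of 0.132, so the size stayed close and the call was lost. The 6 corticotrope and melanotrope markers were all above 0 (median 0.65, none called), but Pcsk2, Pax7 and Oacyl belong to both lists. Pomc, the precursor of corticotropin, had 1.15 (SE 0.30, adjusted p = 0.109, edgeR). Prl, the lactotrope hormone, had -0.67 (SE 0.18, adjusted p = 0.115, edgeR). Thyrotropes also make Cga. The thyrotropin beta subunit Tshb averaged 375 ± 157 CPM (SD, n = 4) in controls and 263 ± 90.8 CPM (SD, n = 4) after PSD, a difference of -0.50 on the log2 scale with an adjusted p of 0.288 in edgeR. Over the 4 thyrotrope markers, Cga among them, 4 had a log2 fold change below 0 and only Cga was called. The part of these cells in the result was not tested.

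The call of Cga in PSD females rested on a narrow margin. It was lost when control mouse 1, 2 or 3, PSD mouse 2 or 3, or PSD + restraint mouse 1 or 2 was left out, with adjusted p-values of 0.0505 to 0.126, while the log2 fold change stayed between -0.84 and -0.69 over all 16 mice left out in turn. It was also lost with library size alone in place of TMM (-0.72, adjusted p = 0.067) and with only PSD and control females in the fit (-0.76, adjusted p = 0.120).

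**Figure D2:**
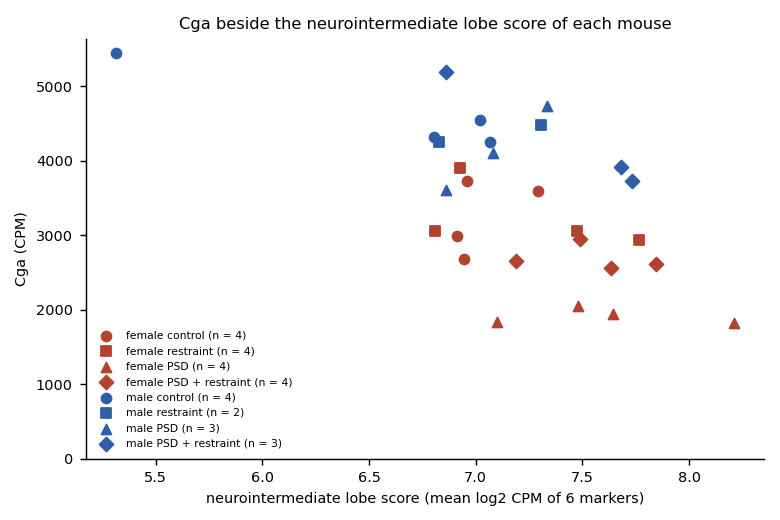
Cga in CPM against the neurointermediate lobe score (mean log2 CPM of 6 markers), 1 point for each of the 28 mice, females in red and males in blue, with a symbol for each treatment. The 4 PSD females (red triangles, 1825 to 2051 CPM) lie lowest at scores of 7.10 to 8.21, beside restrained and PSD + restraint females of similar score that lie higher.

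Restraint alone gave no called gene in either sex. In females 0 of 7 genes were called, beside 98 of 18059 genes tested (0.543%), and 0 had an unadjusted p under 0.05, beside 9.77%. DESeq2 called 0 as well. The log2 fold changes ran from -0.20 (Gnrhr) to 0.17 (Nr5a1), with Cga at 3062, 2938, 3054 and 3899 CPM and Lhb at 479.7, 444, 494 and 577 CPM in the 4 restrained females. In males 0 of 8 genes were called by edgeR or DESeq2 beside 0.296% of genes called, and 0 had an unadjusted p under 0.05, beside 5.07%, with 2 restrained males to compare. The largest difference was that of Nr0b1, at 2.82 and 5.08 CPM in restrained males and 8.92, 5.45, 4.23 and 4.95 CPM in male controls, a log2 fold change of -0.56. These ranges overlapped. Inhbb was the 1 gene of 8 without overlap in males after restraint, beside 13.2% of genes tested.

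Restraint after PSD was set against PSD alone. In females this comparison and the interaction below use the same 4 PSD females as the comparison of PSD with controls. The results are therefore not independent, and low values in that group enter each of them. In PSD + restraint females Cga had 2618, 2564, 2948 and 2659 CPM, above all 4 PSD females and with 3 of the 4 below every control. Relative to PSD alone the log2 fold change was 0.50 (SE 0.11, adjusted p = 0.0343, edgeR), and Cga was the 1 gene of 7 called, beside 170 of 18059 genes (0.941%), 0.814% higher. An unadjusted p under 0.05 was found for 3 of the 7 and for 10.5% of all genes tested. It was also the 1 gene of 7 without overlap, beside 7.87% of genes tested. DESeq2 called 2 of the 7, Cga and Lhb, beside 273 genes in all (1.51%).

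Lhb had 413, 493, 574 and 485 CPM in PSD + restraint females, a range that overlapped that of the PSD females through PSD mouse 1. Its log2 fold change was 0.52 (SE 0.12) with an adjusted p of 0.0546 in edgeR and 0.00447 in DESeq2. Nr5a1 had 31.4, 27.2, 43.2 and 35.4 CPM and a log2 fold change of 0.48 (SE 0.15, adjusted p = 0.200, edgeR), also with overlap. The remaining 4 genes lay between -0.28 (Fshb) and 0.30 (Gnrhr), and the median of the 7 was 0.30 beside -0.00674 over all genes tested. The call of Cga was lost without any 1 of the 4 PSD or the 4 PSD + restraint females (adjusted p = 0.0545 to 0.118, edgeR), at log2 fold changes of 0.45 to 0.53 over the mice left out. It was also lost with library size alone (0.46, adjusted p = 0.127) and with the replicate number as a block (0.50, adjusted p = 0.0567). Lhb was called without PSD mouse 1 (0.64, adjusted p = 0.0172) or without restrained mouse 4 (0.53, adjusted p = 0.0452).

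Against home cage controls, PSD + restraint females had 0 of 7 genes called by edgeR or DESeq2, beside 2.2% of genes, and 2 of the 7 had an unadjusted p under 0.05, beside 20.2%. Cga had a log2 fold change of -0.26 (SE 0.11, adjusted p = 0.186, edgeR). Inhbb (chromosome 1, 119415465 to 119422248, minus strand) had 25, 24.2, 22.6 and 23.4 CPM in PSD + restraint females and 19.3, 18.1, 17.2 and 21.8 CPM in controls. All treated females lay above all controls, as for 14.4% of genes tested, with a log2 fold change of 0.32 (SE 0.11, adjusted p = 0.103, edgeR). The other 5 genes ran from -0.03 (Nr5a1) to 1.05 (Fshb). Against restrained females, 0 of 7 were called by edgeR or DESeq2, beside 0.0332% of genes. In that comparison Cga alone of the 7 had an unadjusted p under 0.05 (14.1% of genes tested), at -0.26 (SE 0.11, adjusted p = 0.297).

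The interaction of PSD and restraint asks whether restraint moves a gene differently after PSD. No gene of the table was called for it in females (0%), and 3 of the 7 had an unadjusted p under 0.05, beside 4.24% of genes tested. Those were Cga at 0.49 (SE 0.15), Lhb at 0.46 (SE 0.17) and Gnrhr at 0.50 (SE 0.22), each with an adjusted p of 0.961 in edgeR. DESeq2 called 0 of the 7. Gnrhr (chromosome 5, 86180754 to 86197901, minus strand), the receptor of GnRH, ranged from 40.1 to 73.4 CPM over all females, and its 4 female groups overlapped.

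**Figure D3:**
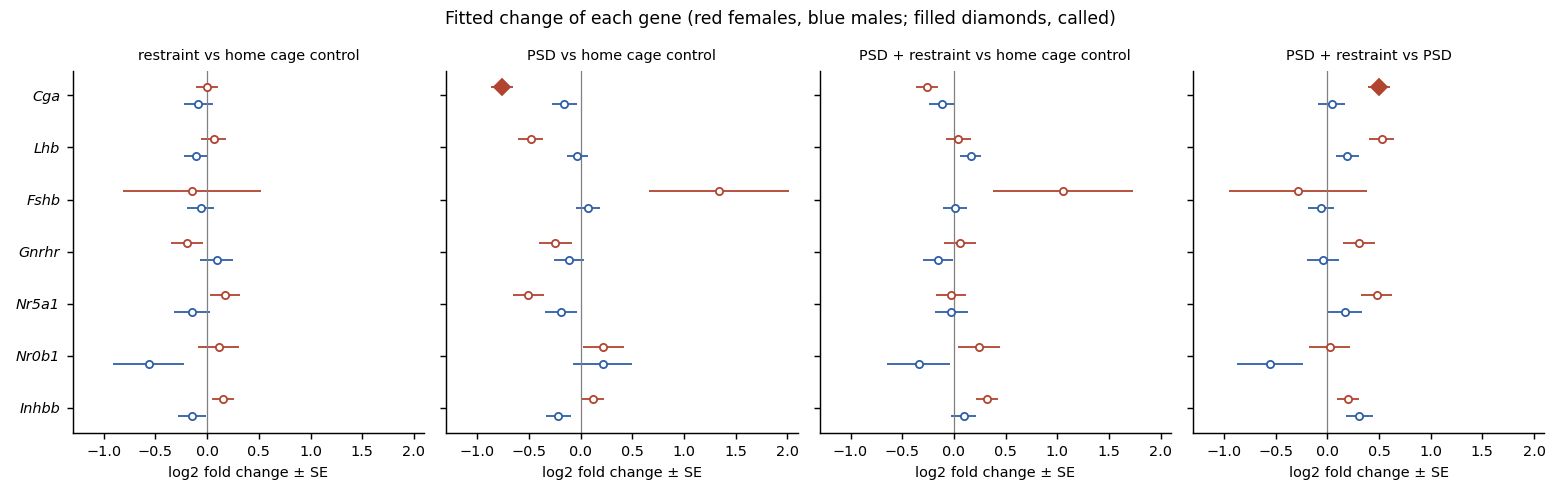
Fitted log2 fold changes (edgeR, bars ± SE) of 7 genes in 4 comparisons, females in red and males in blue, with filled diamonds for called genes. The 2 called values are those of Cga in females, -0.76 after PSD and 0.50 for PSD + restraint against PSD, and the error bars of Fshb in females are the widest.

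In males the same comparisons gave no called gene among the 8. After PSD 0 of 8 were called by edgeR or DESeq2, beside 1 of 18271 genes (0.00547%), and 0 had an unadjusted p under 0.05, beside 8.85%. Cga had 5451, 4260, 4324 and 4553 CPM in male controls and 3607, 4107 and 4732 CPM in PSD males, which overlap. Lhb had 796, 721, 628 and 766 CPM in male controls and 751, 658 and 719 CPM in PSD males. Log2 fold changes other than that of the scarce Fst ran from -0.21 (Inhbb) to 0.21 (Nr0b1). Inhbb, at 29.3, 30.9, 31.2 and 33.7 CPM in male controls and 25.5, 26.9 and 28.1 CPM in PSD males, was the 1 gene of 8 without overlap, beside 10.4% of genes tested.

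PSD + restraint males had 0 of 8 genes called against controls by either tool (2.56% of genes were called), with 0 at an unadjusted p under 0.05 (17.4% of genes) and log2 fold changes from -0.34 (Nr0b1) to 0.17 (Lhb) without Fst. Against PSD males 0 of 8 were called by either tool (0.285% of genes), and Inhbb, the 1 gene of 8 with an unadjusted p under 0.05 (10.3% of genes), had 0.31 (SE 0.13, adjusted p = 0.434, edgeR) from 34.6, 40.1 and 24.6 CPM. Mouse 3 of the PSD + restraint males lay below every PSD male, and without it the value was 0.47 with an adjusted p of 0.0375. Nr0b1 was the 1 gene of 8 without overlap in that comparison, beside 15.6% of genes tested, at 5.96, 5.25 and 2.42 CPM after PSD + restraint and 7.25, 6.74 and 6.54 CPM after PSD. Against restrained males 0 of 8 were called by either tool (0.00547% of genes), and Lhb had 0.27 (SE 0.12, adjusted p = 0.464, edgeR), the 1 gene of 8 with an unadjusted p under 0.05 (10.5% of genes). The interaction in males called 0 of 8 with either tool and no gene of the table (0%), and Inhbb, at 0.45 (SE 0.19, adjusted p = 1, edgeR), was the 1 gene with an unadjusted p under 0.05 (3.84% of genes).

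Whether females and males answered differently was tested in a model of all 8 groups. For PSD, Cga differed by -0.60 (SE 0.17, adjusted p = 0.302, edgeR) and Lhb by -0.45 (SE 0.17, adjusted p = 0.381, edgeR), as the female minus the male log2 fold change. No gene of the table was called in any of the 3 tests of a sex difference in response (0% each) by edgeR. For PSD, 2 of the 8 genes had an unadjusted p under 0.05 (10.8% of all genes). For restraint 0 had one (4.25%), and for PSD + restraint 0 (7.2%). DESeq2 called 0 of the 8 in each. Over all 18936 genes DESeq2 called 24 for PSD, 0 for restraint and 10 for PSD + restraint.

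With both sexes in 1 model, PSD alone again gave Cga as the 1 gene of 8 called, at -0.48 (SE 0.11, adjusted p = 0.0317, edgeR), beside 127 of 18936 genes (0.671%), 0.106% lower. DESeq2 called the same 1 gene of the 8, beside 231 genes in all (1.22%), and 4 of the 8 had an unadjusted p under 0.05 in edgeR, beside 17.6% of genes. Lhb had -0.27 (SE 0.10, adjusted p = 0.158) and Nr5a1 -0.36 (SE 0.12, adjusted p = 0.132). Fst (chromosome 13, 114452290 to 114458951, minus strand) had 1.46 (SE 0.61, adjusted p = 0.207), from 17, 2, 4 and 4 counts in PSD females and 4, 28 and 4 in PSD males, against 6, 1, 2 and 0 in control females and 10, 5, 4 and 2 in control males. Without PSD female mouse 1, the library with the most forebrain transcript, the value of Fst was 0.97 (adjusted p = 0.443). The call of Cga was lost without female control 2 or 3, PSD female 1, 2 or 3 or male control 1 (adjusted p = 0.0505 to 0.0878), at log2 fold changes of -0.57 to -0.43 over all mice left out. It was also lost with library size alone (adjusted p = 0.0588), the replicate block (0.0515), the neurointermediate lobe score (-0.37, adjusted p = 0.171) and only the groups compared (adjusted p = 0.080).
In the same model, restraint called 0 of 8 genes in edgeR and DESeq2 (1.14% of genes) with 0 at an unadjusted p under 0.05 (10.3%), and PSD + restraint called 0 of 8 with both tools (5.46% of genes). Inhbb had 0.20 (SE 0.09, adjusted p = 0.131) after PSD + restraint, the 1 gene of 8 with an unadjusted p under 0.05 (25.5%). The interaction called no gene (0%, also 0 of 8 in DESeq2), and Lhb, at 0.35 (SE 0.15, adjusted p = 1), was the 1 gene of 8 with an unadjusted p under 0.05 (3.92%).

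Between the sexes more of these genes were called than after any treatment. Females had less Cga, Lhb, Fshb and Inhbb than males and more Nr0b1, and these 5 of 8 genes were called over all mice, beside 2822 of 18936 genes (14.9%), 7.79% lower and 7.11% higher in females. DESeq2 called 5 of the 8 as well, beside 2656 genes in all (14%). The log2 differences, female minus male, were -0.69 (SE 0.08, adjusted p = 8.2e-08) for Cga, -0.72 (SE 0.07, adjusted p = 1.6e-08) for Lhb and -0.51 (SE 0.06, adjusted p = 4.9e-07) for Inhbb, all from edgeR. Nr0b1 (chromosome X, 86191764 to 86195947, plus strand) had 0.47 (SE 0.14, adjusted p = 0.0112, edgeR), with overlapping ranges of 4.45 to 9.46 CPM in females and 2.42 to 8.92 CPM in males. Gnrhr and Nr5a1 had -0.03 and -0.14 and were not called.

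Fshb carried the largest sex difference, at -2.40 (SE 0.31, adjusted p = 7.9e-07, edgeR). Its range was 35.6 to 633 CPM in the 16 females and 853 to 1197 CPM in the 12 males, so that no female reached the lowest male. Lhb also separated the sexes, at 272 to 577 CPM in females and 596 to 917 CPM in males. Cga did not quite separate them. PSD male 1, at 3607 CPM, and PSD + restraint male 1, at 3735 CPM, lay below restrained female 4 (3899 CPM) and control female 3 (3736 CPM).

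Among home cage controls alone, 4 of 8 genes were called lower in females, beside 10.7% of genes called, 5.79% lower. They were Fshb at -2.95 (SE 0.58, adjusted p = 0.00104), Inhbb at -0.71 (SE 0.11, adjusted p = 1.2e-04), Lhb at -0.60 (SE 0.12, adjusted p = 9.8e-04) and Cga at -0.51 (SE 0.12, adjusted p = 0.00355), from edgeR. In each of the 4 all control females lay below all control males, as for 18.2% of genes tested. DESeq2, which shrinks fold changes of variable genes toward 0, called 4 as well (10.8% of genes in all) and gave -0.76 for Fshb. Nr0b1 was 0.20 among controls, where it was not called.

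Fshb varied widely between females of 1 group. The standard deviation of log2 CPM within groups was 1.1 for Fshb in females and 0.181 in males, whereas for Cga it was 0.158 and 0.191 and for Lhb 0.188 and 0.156. Of the 8 genes only the scarce Fst spread similarly in females (1.05), and in males too (0.905). Restrained females had 35.6, 281, 82.7 and 61.5 CPM of Fshb and PSD + restraint females 169.6, 633, 117 and 137 CPM, so that 1 mouse of each group lay far above the others. In males the 4 groups held 872 to 1197, 853 to 1044, 899.5 to 1153 and 911 to 1054 CPM in the order control, restraint, PSD and PSD + restraint. The order of the male groups is therefore within their spread, and so is that of the 4 female groups.

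For the other genes the order of the 8 groups was as follows. In Cga the neighbouring groups overlapped from male controls (mean 4647 CPM) down to PSD + restraint females (2697 CPM), and only PSD females (1914 CPM) lay apart from their neighbour. In Lhb the males, with means of 674 to 813 CPM, lay apart from restrained, PSD + restraint and control females (480 to 499 CPM), which overlapped, and PSD females (342 CPM) lay apart from their neighbour, the control females, while their range met that of the PSD + restraint females. In Inhbb every male group mean (26.8 to 33.1 CPM) lay above every female group mean (19.1 to 23.8 CPM), and the neighbours without overlap were male controls and restrained males, and PSD males and PSD + restraint females. Neighbours in the order of Gnrhr, Nr5a1, Nr0b1 and Fst overlapped throughout.

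Ratios of 2 genes in 1 mouse do not depend on how libraries are scaled, and 4 of them were tested for PSD and restraint in each sex and for sex, 20 tests in all. Fshb relative to Cga had a median count ratio of 0.0350 in control females and 0.216 in control males, and relative to Lhb 0.245 and 1.35. Over all mice the ratio of Fshb to Cga was 0.246-fold in females relative to males (log2 difference -2.02, permutation test p = 2.0e-05, adjusted p = 4.0e-04), and that of Fshb to Lhb 0.251-fold (-2.0, permutation test p = 4.0e-05, adjusted p = 4.0e-04). For Lhb to Cga the log2 difference was -0.03 (permutation test p = 0.721, adjusted p = 0.828).

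In females with PSD, with or without restraint, the ratio of Fshb to Cga was 3.26-fold that of females without PSD (log2 difference 1.70, exact permutation test p = 0.0127, adjusted p = 0.0816). For Fshb to Lhb the difference was 1.46 (exact permutation test p = 0.0290, adjusted p = 0.116) and for Lhb to Cga 0.24 (exact permutation test p = 0.0163, adjusted p = 0.0816). None of these passed after adjustment over the 20 tests. PSD female mouse 1 had a ratio of Fshb to Cga of 0.0339, where the other PSD females reached up to 0.241. Without it the differences were 2.04 (adjusted p = 0.0218, exact permutation test) for Fshb to Cga and 1.84 (adjusted p = 0.0306, exact permutation test) for Fshb to Lhb, past the threshold. Without restrained female 2, whose Fshb was the highest of its group, they were 2.01 (adjusted p = 0.0272, exact permutation test) and 1.78 (adjusted p = 0.0449, exact permutation test). Lhb to Cga likewise passed without control female 4 (0.30, adjusted p = 0.0218) or PSD + restraint female 1 (0.27, adjusted p = 0.0463), each by exact permutation test. In males the smallest p among the 8 tests of PSD and restraint was 0.191 (exact permutation test, adjusted p = 0.522), for Lhb to Cga after PSD. The ratio of Fst to Inhbb, which rests on 0 to 28 counts of Fst, passed in none of its 5 tests.

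**Figure D4:**
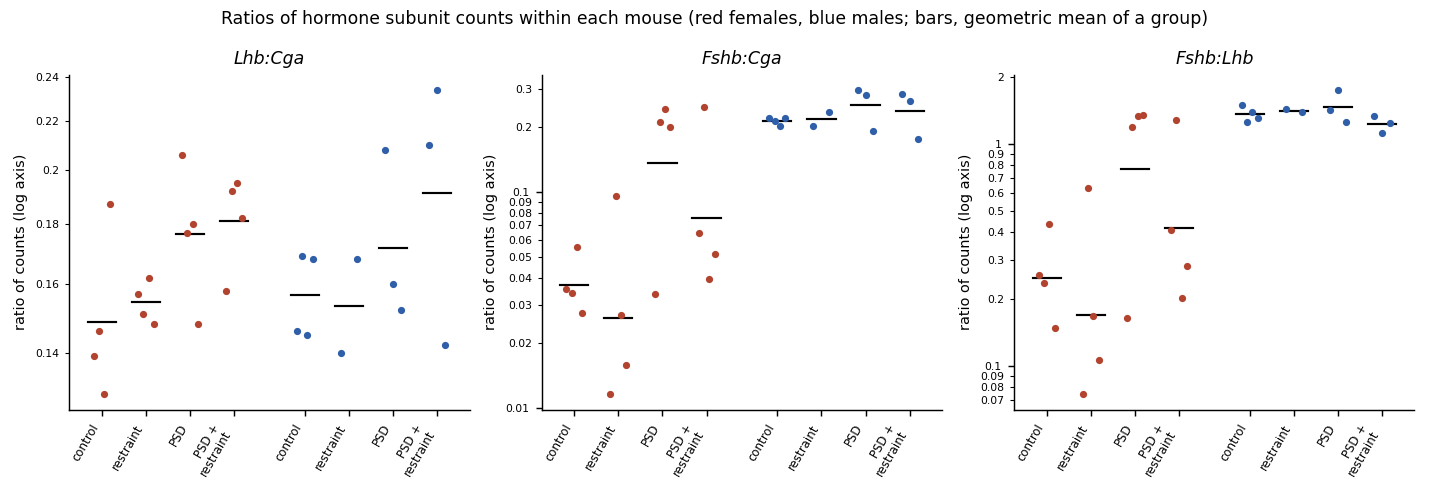
Ratios of counts of Lhb to Cga, Fshb to Cga and Fshb to Lhb in each of the 28 mice on log axes, by treatment, females in red and males in blue, with the geometric mean of each group as a bar. The Fshb ratios of males stay together (0.176 to 0.296 to Cga) and those of females range from 0.0116 to 0.247, with PSD mouse 1 far below the other 3 PSD females.

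After group means were subtracted, some of the 8 genes varied together between mice of a group, which is a description over mice that share libraries and depth. Fshb and Gnrhr had a Pearson correlation of 0.73 over the 16 females and 0.885 over the 12 males, and Gnrhr and Nr0b1 of 0.19 and 0.817. Cga and Lhb had 0.531 in females and -0.00166 in males, and Cga and Nr5a1 0.523 and 0.0454. Against the mean standardized level of the 8 genes over the 28 mice, sex included, the genes most alike were Tub (Pearson correlation 0.883), D430019H16Rik (0.872) and Myo3b (0.863), followed, among others, by Chka, Igsf9, Lhx4, Tmem229b, Myo15 and Cecr2 at 0.846 to 0.858. With group means subtracted they were Tnnt1 (0.917), Chrna4 (0.841) and Sptbn1 (0.823), followed by Sox13, Sema4g, Ndrg1, Map3k9, Qpct, Abr and Kif1b at 0.786 to 0.815.

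Other genes of the gonadotrope's pathways were counted in 5 lists of 67 genes. After PSD alone 0 of 63 listed genes tested in females and 0 of 67 in males were called. Over all genes tested the shares called were 0.0277% and 0.00547%, so few calls could be looked for in lists of this size. An unadjusted p under 0.05 was found for 15 of the 63 in females (19.8% of all genes) and 12 of the 67 in males (8.85%). The genes called for a treatment within a sex were all of the GnRH signalling list of 27 genes and all higher, and the 4 other lists had 0 called. These are early-response and feedback genes that many pituitary cell types use. In females restraint raised 2 of the 27 (0.543% of all genes tested were called), Rgs2 (1.02, adjusted p = 0.0138), a brake on G-protein signalling, and the stress-responsive factor Atf3 (2.85, adjusted p = 0.0363). PSD + restraint raised 4 of the 27 in females against controls (2.2% of all genes). They were Rgs2, Atf3, the EGR corepressor Nab2 (0.79, adjusted p = 0.00945) and the kinase phosphatase Dusp4 (1.27, adjusted p = 0.0333). Set directly against restraint alone, PSD + restraint had 0 of the 27 called in females (0.0332% of all genes) and 0 in males (0.00547%). In males restraint raised 3 of the 27 (0.296% of all genes), Atf3 (3.34, adjusted p = 0.00297), Egr1 (4.23, adjusted p = 0.00900) and Dusp1 (2.85, adjusted p = 0.0269), and PSD + restraint raised 6 (2.56% of all genes), Atf3 (4.06, adjusted p = 1.5e-04) and Rgs2 (0.69, adjusted p = 0.0105) first. With both sexes in 1 model PSD alone raised 1 of the 27 (0.671% of all genes), Dusp4 (0.93, adjusted p = 0.0297). Egr1, the factor that carries the GnRH signal to Lhb, was at 14.3 ± 8.76 CPM (SD, n = 4) in control males. In restrained males it was at 272 ± 69.5 CPM (SD, n = 2), and Lhb had 596 and 751 CPM there. Which cells of the gland raised Egr1 was not measured, and a link to Lhb was not tested.

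Between the sexes, 20 of the 67 listed genes were called over all mice, 9 higher and 11 lower in females, beside 14.9% of all genes tested. In the GnRH signalling list 8 of 27 were called, led by the calcium channel Cacna1c (0.68, adjusted p = 2.5e-07), the calcium release channel Itpr1 (-0.34, adjusted p = 9.8e-07) the protein kinase C gene Prkca (-0.46, adjusted p = 2.8e-06) and a further calcium release channel, Itpr3 (-0.76, adjusted p = 2.1e-05). In the activin list 2 of 19 were called, Bmp2 at 0.77 (adjusted p = 3.0e-05) and the activin A subunit Inhba at -1.04 (adjusted p = 7.4e-05). Among lineage factors 5 of 9 were called, with Gata2, a factor of gonadotropes and thyrotropes, at -0.88 (adjusted p = 9.2e-06), and Foxl2, which acts on Fshb, at 0.38 (adjusted p = 6.7e-04). Called steroid receptors included the progesterone receptor Pgr at 1.5 (adjusted p = 4.1e-10) and the glucocorticoid receptor Nr3c1 at -0.34 (adjusted p = 0.00127). Of 7 other inputs 2 were called, the PACAP receptor Adcyap1r1 at -0.71 (adjusted p = 3.9e-04) and Nos1 at 0.94 (adjusted p = 0.00257), all by edgeR. Thyrotropes share Cga, and 3 of their 4 markers, Cga included, were called lower in females over all mice, with Tshb at -0.40 (adjusted p = 0.0361) and the receptor Trhr at -0.69 (adjusted p = 7.3e-04). Among home cage controls neither Tshb (0.02, adjusted p = 0.981, edgeR) nor Trhr (-0.63, adjusted p = 0.108, edgeR) was called. Somatotrope and lactotrope markers moved with sex too, with Gh at -1.22 (adjusted p = 8.0e-04) and Prl at 2.34 (adjusted p = 7.9e-10) among controls, and their part in the differences given here was not tested.

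Overlapping gene models touch 4 of the 8 genes. Antisense models overlap Cga (Platr9), Lhb (Ruvbl2, protein-coding), Nr5a1 (Nr5a1os) and Fst (Gm47040) on the opposite strand in GENCODE M21. The libraries keep strand, but the strand setting of the counting was not given in the sources used here, so reads of such pairs may not be told apart.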

How the data were processed

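Pituitary RNA of 28 mice was sequenced as stranded mRNA. Per the study's methods, MapSplice mapped the paired-end reads to the genome build mm10, and HTSeq 0.9.1 assigned them to genes of the UCSC annotation. The deposited values used here are the authors' raw counts per gene and mouse. A second deposited table, of counts divided by a size factor per mouse, was not used. Groups came from the sample labels. The 8 genes and all lists were chosen with earlier results of these data known. Of 32594 genes, 18059 in females, 18271 in males and 18936 in all mice passed edgeR's filterByExpr. Analyses used R 4.3.3, edgeR 4.0.16 (TMM, glmQLFTest) and DESeq2 1.42.0. Within a sex 1 mean per treatment was fitted and the interaction taken as a contrast, all mice were fitted with sex added, and a model of 8 group means tested sex differences among controls and in response. DESeq2 fold changes were shrunken (normal prior) except for interactions. Log2 fold changes, SE and Benjamini-Hochberg adjusted p-values over all tested genes are printed for gene and comparison pairs with an unadjusted p under 0.05. The others are given as ranges. Of each pathway list, at most 4 called genes by smallest p are named, and a few genes are not reported here. CPM uses TMM over all genes, log2 CPM a prior count of 2, and TPM the mean transcript length of GENCODE M21. Ratios used counts plus 0.5 and two-sided permutation tests stratified by the other factor, exact within a sex and with 100000 resamples for sex. The edgeR fits were tested on simulated counts. All 37 pairs of mice within groups differed beyond sampling noise. Same-numbered mice deviated together (correlation over 0.1) in 4 of 39 pairs. Alternatives were DESeq2, its size factors, library size alone, other filters, a replicate block, a neurointermediate lobe score, robust dispersion, only the groups compared, each mouse left out and, chosen after seeing the data, counts thinned to the smallest library.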

Additional observations from a re-analysis of the deposited data

Results flagged for a closer look

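Single mice stood apart from the other 3 of their group in 6 of 60 sets of 4 values examined (Dixon's test at its 95% critical value). For a single set chance gives about 1 in 20. The sets are not independent, since the ratios use counts of the same genes, so the 6 cannot be set against that rate. Of these 6, 4 came from PSD female mouse 1, the mouse with the most forebrain transcript. It had the lowest Fshb of its group (69.5 CPM), the highest Nr5a1 (28.15 CPM) and the lowest ratios of Fshb to Cga (0.0339) and Fshb to Lhb (0.164). The low Fshb enters both of these ratios. Restrained female 4 had the highest Cga of its group, at 3899 CPM. Male control mouse 1, whose library held little posterior lobe transcript, had the highest Gnrhr of its group, at 75.19 CPM.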

How the results depend on the processing

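The direction of each called log2 fold change held in every alternative, while the treatment calls rested on small margins and the sex calls, 5 genes over all mice and 4 among controls, were kept in each. The number of the 8 genes called after PSD in females was 1, and 3 with DESeq2, 0 with library size alone in place of TMM, 0 with the neurointermediate lobe score, 0 with only the groups compared, and 0 to 1 with each mouse left out. For PSD + restraint against PSD in females it was 1, and 2 with DESeq2, 0 with library size alone, 0 with the replicate block, and 0 to 2 with each mouse left out. For PSD in all mice it was 1, and 0 with library size alone, 0 with the replicate block, 0 with the neurointermediate lobe score, 0 with only the groups compared, and 0 to 1 with each mouse left out. For PSD + restraint against PSD in males it was 0, and 0 to 1 with each mouse left out. Same-numbered mice had correlations of -0.347 to 0.333, with 4 of 39 pairs over 0.1. Mice of different numbers were not compared, so whether the replicate numbers pair the mice was not tested. The replicate block changed no other number of calls. Fits with a mouse left out or with only the groups compared held fewer mice. Why calls were lost in any alternative was not tested. With each mouse left out, log2 ratio differences ran from 0.20 to 0.30 for Lhb to Cga, 1.42 to 2.04 for Fshb to Cga and 1.19 to 1.84 for Fshb to Lhb (PSD in females), past the threshold in 2 cases each. Ratio differences near 0 that changed sign ran from -0.0799 to 0.0105 (Lhb to Cga, sex), -0.65 to 0.10 (Fst to Inhbb, restraint in females), -0.0885 to 0.29 (Fst to Inhbb, sex), -0.0115 to 0.17 (Lhb to Cga, restraint in males), -0.14 to 0.0680 (Fshb to Cga, restraint in males), -0.11 to 0.00899 (Fshb to Lhb, PSD in males) and -0.33 to 0.36 (Fst to Inhbb, PSD in males, also -0.33 with medians in place of means). At 0 to 28 counts per mouse, no difference in Fst was measurable with any precision, and 2 restrained males limit all comparisons with that group.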
